A study of Mus musculus with 14 samples.

Results

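The genes described here encode the m6A writer complex and the m6A erasers of mouse embryonic fibroblasts. They are Mettl3, Mettl14, Wtap, Virma, Zc3h13, Cbll1, Rbm15, Rbm15b, Fto and Alkbh5, which are 10 of the 14248 genes in the deposited files. They were chosen by name, and each was represented by the transcript with the highest mean RPKM over all 14 libraries. RPKM is the number of reads divided by the length of the transcript and by the depth of the library.

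The study sequenced ribosome-protected fragments (Ribo-seq, 25 to 35 nt) and RNA fragments (RNA-seq, 40 to 60 nt) of fibroblasts of strain C57BL/6J. Cells with an shRNA against METTL3 (METTL3 knockdown) gave 2 libraries per assay, cells with an shRNA against ABCF1 (ABCF1 knockdown) gave 2, a group labelled Torin gave 1, and cells with a scrambled control hairpin (Scram) gave 2. Torin1, an inhibitor of the kinase mTOR, was used at 250 nM for 2 h. The treatment protocol is given for all samples as DMSO or Torin1, and no label names the hairpin, if any, of the Torin cells. All cells were washed and lysed with cycloheximide at 100 µg/ml, which halts elongating ribosomes. Whether the replicates were separate cultures is not stated, so the p-values below measure only the spread between these libraries.

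N6-methyladenosine (m6A) is a methyl mark on adenosines of mRNA that is placed in the nucleus by a multi-protein writer. Mettl3 is its catalytic subunit, and Mettl14 is the partner that holds the RNA. Wtap carries this pair to nuclear speckles, and Virma, Zc3h13, Cbll1 (also called Hakai), Rbm15 and Rbm15b are adaptors of the complex. Fto and Alkbh5 are dioxygenases that remove the mark. The mark lies mostly within a short motif, of which GGACT is a common form.

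In all 14 libraries fibroblast markers summed to far more than the markers of other cell types. Of 12 fibroblast markers 11 were listed, with summed levels of 2499 to 5012 RPKM in RNA-seq and 6507 to 11005 RPKM in Ribo-seq, while Lum was not in any file. In Torin 2 of these 11 were at 0 in RNA-seq and 2 in Ribo-seq. In each other group all 11 were above 0 in at least 1 library per assay. Epithelial markers summed to 25.0 to 82.5 RPKM in RNA-seq and 77.3 to 261 RPKM in Ribo-seq, with Cldn4 in no file. Immune markers summed to at most 11.8 RPKM, endothelial ones to at most 1.69 RPKM and pluripotency ones to at most 3.72 RPKM in any library, with Adgre1, Cdh5 and Pou5f1 in no file. Depth recovered from the RPKM steps was 1764404 to 5155236 reads in Ribo-seq and 1197856 to 3802699 reads in RNA-seq. Libraries stood apart by replicate set before they did by group, read on the kept transcripts with unlisted values set to 0. Replicate 1 files listed 1.19 to 1.37 transcripts per gene and the other files 1.00. The part of this listing in the correlations that follow was not tested. Between libraries of the same set (replicate 1, or replicate 2 with Torin) the log2 levels correlated across genes at 0.925 to 0.978 in Ribo-seq, against 0.652 to 0.708 between sets, and at 0.862 to 0.970 in RNA-seq, against 0.578 to 0.667 between sets. For that reason each knockdown library is set beside the Scram library of the same replicate number, and Torin beside Scram replicate 2. All comparisons with Scram share those Scram libraries.

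The letters GGACT were counted in the kept transcripts, since the writer acts within this motif. It occurred in 92.0% of 9728 transcripts of tested genes, read on the transcript strand and with no overlap possible between matches, and the median was 1.05 matches per kilobase. Wtap held 5 matches (2.43 per kilobase, more than 94.2% of transcripts) and Mettl3 held 4 (1.98 per kilobase, more than 87.8%). Alkbh5 held 10 (1.75 per kilobase, more than 81.9%), whereas Rbm15 held 2 (0.46 per kilobase, more than 15.8%). The other 6 members lay between 0.84 and 1.28 matches per kilobase, near the median. A match describes the letters only, and no methylation was measured in these libraries. Sequences of the matches in Mettl3 and Wtap are shown because these members hold the densest ones. Each is 25 bases of the GENCODE M21 transcript, 5′ to 3′, with 10 bases on either side of the motif in capitals. All lie on the minus strand of GRCm38.
Mettl3, exon 1, coding, chr14:52304929-52304953: agaaacagctGGACTcgcttcgcga
Mettl3, exon 1, coding, chr14:52304890-52304914: gacggaagcaGGACTctgggcactt
Mettl3, exon 9, coding, chr14:52296526-52296550: accagggcctGGACTgcgatgtgat
Mettl3, exon 11, 3′ UTR, chr14:52294908-52294932: caccttaagaGGACTgtttacgcaa
Wtap, exon 1, 5′ UTR, chr17:12992441-12992465: gggcttccgcGGACTgtctccgtgc
Wtap, exon 8, coding, chr17:12967887-12967911: agtaccagcaGGACTacatcttctg
Wtap, exon 8, coding, chr17:12967490-12967514: agaatggcttGGACTcaaatgtaaa
Wtap, exon 8, 3′ UTR, chr17:12967046-12967070: tgtgggtttaGGACTgccaggtttg
Wtap, exon 8, 3′ UTR, chr17:12966999-12967023: ctaaaaagttGGACTtggagtccta

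Mettl3 (ENSMUST00000022767, GRCm38 chromosome 14, 52294841 to 52305128, minus strand, 1743 coding bases) is the gene targeted by the METTL3 hairpin. Its Ribo-seq level was 2.22 and 4.62 RPKM in METTL3 knockdown (10 and 20 reads), 12.2 and 17.0 RPKM in ABCF1 knockdown (110 and 83 reads), 20.2 RPKM in Torin (62 reads), and 17.9 and 12.8 RPKM in Scram (149 and 86 reads). Both METTL3 knockdown libraries lay below every other library, while ABCF1 knockdown and Scram overlapped. Torin was the highest in these RPKM only. With the scaling described next, Scram replicate 1 was above Torin. After scaling each library to a common median, the METTL3 knockdown footprints were 12.3% of Scram in replicate 1 (95% interval of the reads 5.77% to 23.2%) and 38.7% in replicate 2 (22.5% to 63.5%). These intervals, exact and based on the read numbers, cover counting error only.

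The mRNA of Mettl3 separated the groups less. Its RNA-seq level was 3.76 and 3.31 RPKM in METTL3 knockdown (12 and 9 reads), 13.1 and 6.37 RPKM in ABCF1 knockdown (36 and 18 reads), 7.83 RPKM in Torin (19 reads), and 12.7 and 4.68 RPKM in Scram (44 and 36 reads). METTL3 knockdown was lowest again, but the Scram libraries differed from each other by more than Scram replicate 2 differed from the knockdown. Relative to same-replicate Scram the mRNA was 29.0% in replicate 1 (13.96% to 55.9%) and 77.8% in replicate 2 (33.0% to 164.6%), so a lower mRNA was not detectable at this depth in replicate 2. In bulk samples, fewer cells that express a gene and less RNA per cell cannot be told apart.

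Fitted over all libraries with limma on log2(scaled RPKM + 1), a scale that understates changes of low genes, Mettl3 was 1.91 lower in METTL3 knockdown than in Scram in Ribo-seq (log2 change -1.91, SE 0.45, n = 2 each, lower in both replicates). The unadjusted p was 0.00925, and 1 of the 10 members and 2.55% of 9534 genes reached an unadjusted p under 0.05. Mettl3 ranked 56th from the lowest by change. The adjusted p over all genes was 1.00 in the limma fit without a replicate block, and 0.140 with the replicate number as a block, so the targeted gene did not pass the test in either fit. The value rests unevenly on the replicates, being -2.62 in replicate 1 alone and -1.20 in replicate 2 alone. In RNA-seq the limma change was -0.89 (SE 0.42, adjusted p = 1.00), and it was -1.49 in replicate 1 and -0.30 in replicate 2. The ratio of footprints to mRNA (translational efficiency, TE) changed by -1.02 on the log2 scale (SE 0.61, limma adjusted p = 1.00).

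Set directly against the other hairpin, Mettl3 was again lower. The METTL3 knockdown minus ABCF1 knockdown change was -1.79 in Ribo-seq (SE 0.45, unadjusted p = 0.0118, limma adjusted p = 1.00, and 0.180 with the block) and -1.22 in RNA-seq (SE 0.42, unadjusted p = 0.0312, limma adjusted p = 1.00). This pair of groups was less uneven between replicates, at -1.98 and -1.61 in Ribo-seq. The limma fit without the block called 0 genes in this comparison in either assay (0% of 9021 and of 9534), with 254 and 201 genes at an unadjusted p under 0.05 (2.82% and 2.11%), and the fit with the block called 0 and 5 genes (0% and 0.0524%), Mettl3 not among them. With the block 1042 genes (11.6%) for RNA-seq and 1070 (11.2%) for Ribo-seq had an unadjusted p under 0.05, Mettl3 among both, and 352 (3.73%) for TE, without Mettl3. In TE the change was -0.59 (SE 0.61). Against Scram the TE change of Mettl3 in ABCF1 knockdown was itself -0.43 (SE 0.61). Under ABCF1 knockdown Mettl3 footprints were 62.3% of Scram in replicate 1 (48.3% to 80.3%) and 135% in replicate 2 (98.8% to 185%), on opposite sides of Scram.

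**Figure D1:**
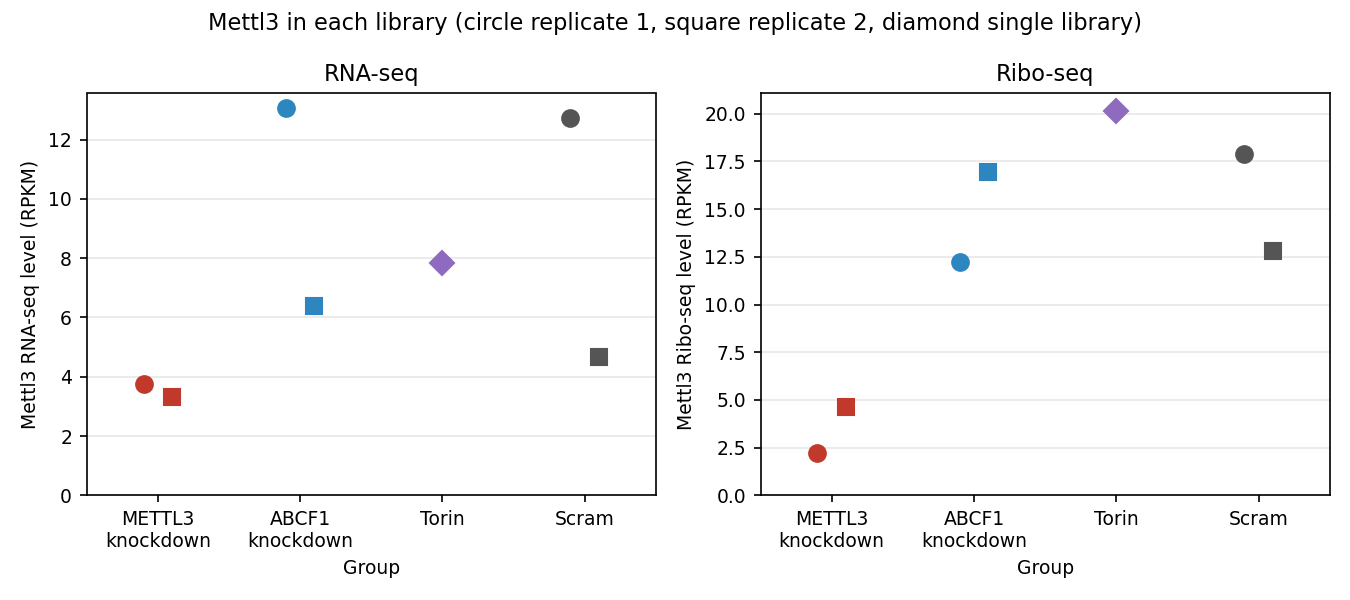
Mettl3 level in RPKM (vertical axes, starting at 0) in RNA-seq (left) and Ribo-seq (right). Each point is 1 library, grouped as METTL3 knockdown, ABCF1 knockdown, Torin and Scram. In Ribo-seq both METTL3 knockdown libraries, at 2.22 and 4.62 RPKM, lie below the lowest other library at 12.2 RPKM, and in RNA-seq their distance to Scram replicate 2, at 4.68 RPKM, is small.

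None of the 10 members passed the test in any comparison. The limma fit without the block called 0 of 10 members in METTL3 knockdown against Scram, where 0% of genes were called in RNA-seq, Ribo-seq and TE. It likewise called 0 of 10 in ABCF1 knockdown against Scram and in Torin against Scram, again with 0% of genes called in each measure. With the replicate block, limma still called 0 of 10 members. The shares of all genes were then 0% in RNA-seq, 0.0105% in Ribo-seq and 0% in TE for METTL3 knockdown, 0% in each measure for ABCF1 knockdown, and 0.111%, 1.32% and 0.552% in the 3 measures for Torin. An unadjusted p under 0.05, without the block, was reached in METTL3 knockdown by 63 genes (0.698%) for RNA-seq, 243 (2.55%) for Ribo-seq and 46 (0.488%) for TE, of which Mettl3 in Ribo-seq was the only member. With the block it was reached in METTL3 knockdown by 386 genes (4.28%) for RNA-seq, with Mettl3 and Wtap among them, 1261 (13.2%) for Ribo-seq, with Mettl3, and 378 (4.01%) for TE, with 0 members. For ABCF1 knockdown it was reached by 79 (0.876%), 106 (1.11%) and 37 genes (0.392%) in the same order of measures, and for Torin by 203 (2.25%), 304 (3.19%) and 253 (2.68%), with 0 members among them. With the block these were 586 (6.5%), 725 (7.6%) and 348 (3.69%) for ABCF1 knockdown and 495 (5.49%), 1262 (13.2%) and 808 (8.57%) for Torin, again with 0 members.

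**Figure D2:**
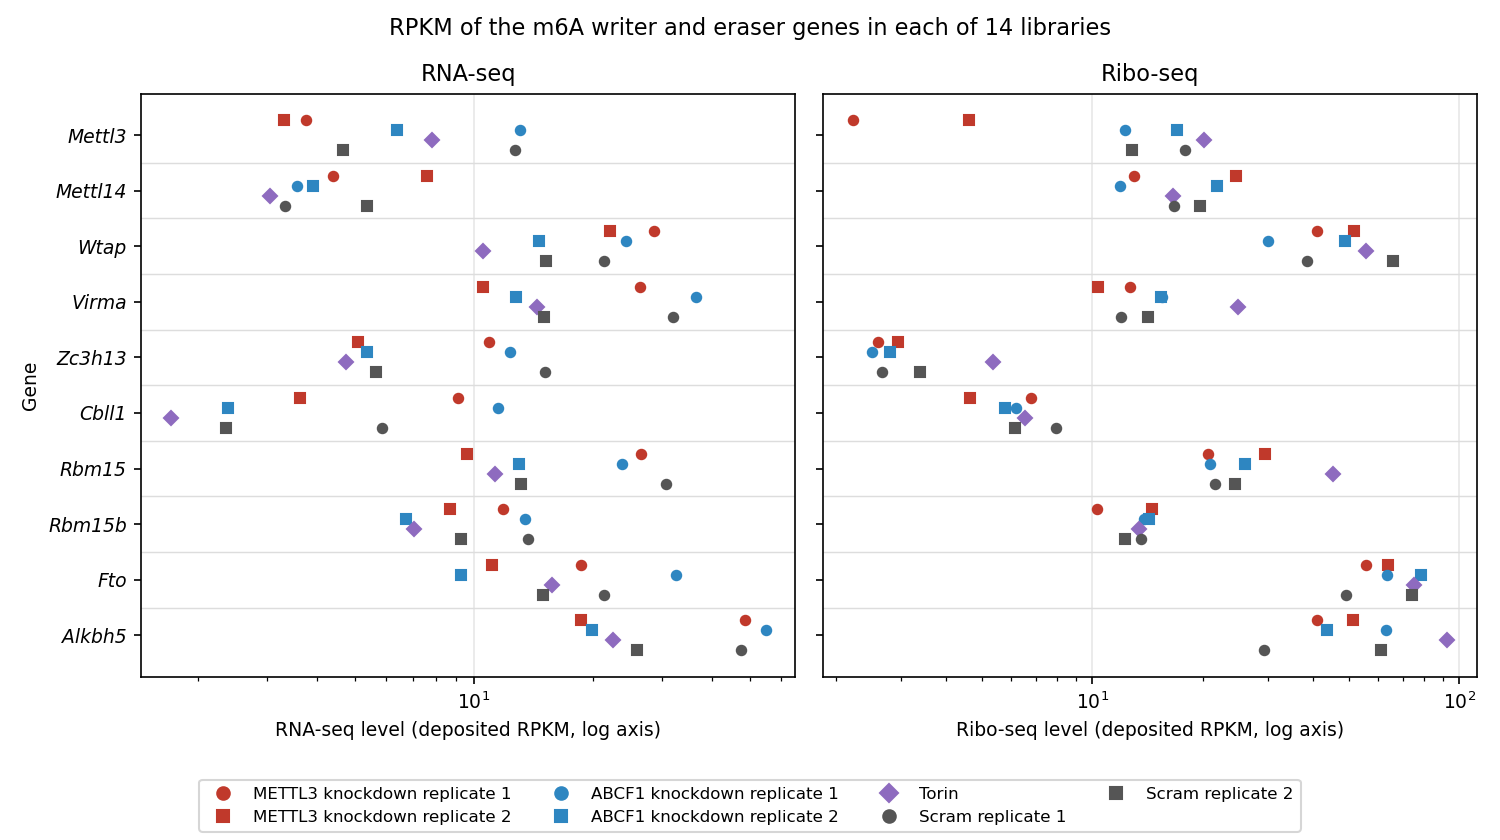
RPKM of the 10 genes (rows) on log axes in RNA-seq (left) and Ribo-seq (right). Each point is 1 of 14 libraries, coloured by group, with circles for replicate 1, squares for replicate 2 and diamonds for Torin. Mettl3 in Ribo-seq is the gene whose METTL3 knockdown libraries stand away from the rest. In RNA-seq most genes are split by replicate set more than by group in these RPKM, which are not scaled.

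Mettl14 (ENSMUST00000029759, chromosome 3, 123368297 to 123386108, minus strand), the RNA-holding partner, was listed under different transcripts in the replicate sets. Replicate 2 and Torin files gave the kept transcript of 1371 coding bases. Replicate 1 files gave almost all reads to ENSMUST00000090371, with 0 to 2 reads on the kept one in Ribo-seq, and that transcript is used for replicate 1 below. In Ribo-seq Mettl14 stood at 13.02 and 24.7 RPKM in METTL3 knockdown (22 and 84 reads), 11.9 and 21.8 RPKM in ABCF1 knockdown (40 and 84 reads), 16.5 RPKM in Torin (40 reads), and 16.6 and 19.7 RPKM in Scram (52 and 104 reads). Both knockdown groups overlapped with Scram. Torin lay just below the lower Scram library in these RPKM, and after scaling it was at 13.2 RPKM against 19.5 and 18.2 RPKM in Scram. Its footprints in METTL3 knockdown were 77.4% (44.7% to 129.6%) and 134% (99.6% to 181%) of same-replicate Scram, on opposite sides and with both intervals reaching 100%.

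The RNA-seq level of Mettl14 was 4.41 and 7.61 RPKM in METTL3 knockdown, 3.57 and 3.92 RPKM in ABCF1 knockdown, 3.05 RPKM in Torin, and 3.33 and 5.37 RPKM in Scram, from 10 to 56 reads per library. Both METTL3 knockdown values were above the same-replicate Scram, at 130% (84.2% to 201%) and 156% (95.2% to 249%), and both intervals included 100%. With the transcript chosen within each set, a setting added after the data had been seen, the limma change of Mettl14 in METTL3 knockdown was 0.42 in RNA-seq and 0.05 in Ribo-seq (adjusted p = 1.00 in both). The fit of the kept transcript alone gives no usable value, since its SE was 1.58 in RNA-seq and 2.36 in Ribo-seq.

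Within the catalytic pair, the footprint density of Mettl14 relative to Mettl3 was 5.86 and 5.34 in METTL3 knockdown. The same ratio was 0.969 and 1.29 in ABCF1 knockdown, 0.820 in Torin, and 0.930 and 1.54 in Scram. The ratio was thus several times higher in both METTL3 knockdown libraries than in any other library. Among the rest Torin was lowest, and ABCF1 knockdown and Scram overlapped. Mettl3 itself is the denominator, with the 10 and 20 reads given above. For the mRNA the ratio was 1.17 and 2.30 in METTL3 knockdown, 0.274 and 0.616 in ABCF1 knockdown, 0.389 in Torin, and 0.262 and 1.15 in Scram, where METTL3 knockdown replicate 1 and Scram replicate 2 nearly coincided. Wtap relative to Mettl3 in Ribo-seq was 18.4 and 11.2 in METTL3 knockdown, 2.46 and 2.87 in ABCF1 knockdown, 2.76 in Torin, and 2.15 and 5.14 in Scram. Wtap is here its kept transcript alone, which held only part of the Wtap reads in replicate 1. In Ribo-seq it held 126 of 300 Wtap reads in METTL3 knockdown replicate 1 and 219 of 482 in Scram replicate 1. Mettl14 is ENSMUST00000090371 in replicate 1 and the kept transcript elsewhere. No test was made of these ratios.

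Wtap (ENSMUST00000159551, chromosome 17, 12966796 to 12992497, minus strand), which brings the catalytic pair to nuclear speckles, had more mRNA on its kept transcript in METTL3 knockdown than in Scram, without passing the test. Its RNA-seq level was 28.6 and 22.1 RPKM in METTL3 knockdown, 24.3 and 14.6 RPKM in ABCF1 knockdown, 10.5 RPKM in Torin, and 21.3 and 15.2 RPKM in Scram. In Ribo-seq it was 40.9 and 51.7 RPKM in METTL3 knockdown, 30.1 and 48.7 RPKM in ABCF1 knockdown, 55.7 RPKM in Torin, and 38.5 and 65.8 RPKM in Scram. In RNA-seq both METTL3 knockdown libraries were above both Scram libraries, the lower of them narrowly in these RPKM, where ABCF1 knockdown overlapped with Scram. After scaling the kept transcript stood at 21.5 and 26.9 RPKM in METTL3 knockdown, 17.6 and 20.6 RPKM in ABCF1 knockdown, and 16.3 and 16.9 RPKM in Scram. In Ribo-seq both knockdown groups overlapped with Scram. Torin lay between the Scram libraries before scaling, and after scaling it was below both, at 44.3 RPKM against 45.1 and 60.8 RPKM.

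Relative to same-replicate Scram, the kept Wtap transcript in METTL3 knockdown was at 132% (96.3% to 181%) and 160% (115% to 219%) in mRNA, against footprints of 105% (83.8% to 132%) and 84.3% (68.9% to 103%). In ABCF1 knockdown the mRNA was 108% and 122% of Scram (96.2% in replicate 2 without scaling), and the footprints were 71.3% (58.3% to 87.1%) and 75.6% (62.1% to 91.8%), with both footprint intervals below 100%. The limma TE change of Wtap was -0.60 in METTL3 knockdown (SE 0.40, adjusted p = 1.00) and -0.61 in ABCF1 knockdown (SE 0.40, adjusted p = 1.00), lower in both replicates of each on the kept transcript. These values share the Scram libraries. In replicate 1 files the Wtap reads were divided between the kept transcript and ENSMUST00000159986, which had the higher footprint level there. That transcript stood at 101% of Scram in mRNA and 121% in footprints in METTL3 knockdown replicate 1, so its TE was above Scram where that of the kept transcript was below. Summed over transcripts, Wtap in METTL3 knockdown replicate 1 was at 120.4% in mRNA and 117% in footprints, a TE difference of only -0.04 on the log2 scale. In ABCF1 knockdown replicate 1 the sums were at 118% in mRNA and 72.5% in footprints, a TE difference of -0.71. With RPKM summed over transcripts the limma TE changes were -0.44 in METTL3 knockdown and -0.66 in ABCF1 knockdown (adjusted p = 1.00 in both).

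Cbll1 (ENSMUST00000101499, chromosome 12, 31484936 to 31499616, minus strand), an adaptor with a RING domain, had more mRNA and fewer footprints than same-replicate Scram in both knockdowns after scaling, on few reads and without passing the test. Its RNA-seq level was 9.11 and 3.63 RPKM in METTL3 knockdown (56 and 19 reads), 11.5 and 2.39 RPKM in ABCF1 knockdown (61 and 13 reads), 1.71 RPKM in Torin (8 reads), and 5.85 and 2.36 RPKM in Scram (39 and 35 reads). In Ribo-seq it had 6.82 and 4.64 RPKM in METTL3 knockdown, 6.18 and 5.79 RPKM in ABCF1 knockdown, 6.53 RPKM in Torin, and 7.94 and 6.15 RPKM in Scram, from 17 to 56 reads per library. The mRNA was 153% (99.8% to 236%) and 169% (91.3% to 304%) of Scram in METTL3 knockdown, and 187% (123% to 286%) and 128% (62.3% to 249%) in ABCF1 knockdown. Without scaling, ABCF1 knockdown replicate 2 was close to Scram, at 2.39 against 2.36 RPKM. The footprints were 80.8% to 84.9% of Scram in METTL3 knockdown and 70.8% to 96.1% in ABCF1 knockdown, and every footprint interval included 100%. Its limma TE change was -0.78 in METTL3 knockdown (SE 0.71, adjusted p = 1.00) and -0.75 in ABCF1 knockdown (SE 0.71, adjusted p = 1.00), again with the same Scram libraries.

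Virma (ENSMUST00000108307, chromosome 4, 11486043 to 11550684, plus strand), the large scaffold of the adaptor module, had a lower mRNA reading in METTL3 knockdown than in Scram of the same replicate. In RNA-seq it stood at 26.3 and 10.5 RPKM in METTL3 knockdown, 36.5 and 12.8 RPKM in ABCF1 knockdown, 14.5 RPKM in Torin, and 31.9 and 15.0 RPKM in Scram. That is 81.2% (69.1% to 95.3%) and 77.2% (60.8% to 97.1%) of Scram in METTL3 knockdown, with both counting intervals below 100%, against 109% and 108% in ABCF1 knockdown. The limma change in METTL3 knockdown was -0.32 (SE 0.38, adjusted p = 1.00), at -0.29 in replicate 1 and -0.35 in replicate 2. That SE takes in the spread between the replicate sets, where Scram itself stood at 24.4 and 16.7 RPKM after scaling. With the replicate block the SE was 0.18, and the change did not pass there either. In Ribo-seq Virma had 12.7 and 10.4 RPKM in METTL3 knockdown, 15.5 and 15.4 RPKM in ABCF1 knockdown, 24.9 RPKM in Torin, and 11.95 and 14.2 RPKM in Scram.

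Zc3h13 (ENSMUST00000022577, chromosome 14, 75284373 to 75344426, plus strand), a zinc finger protein that holds the complex in the nucleus, had the fewest footprints per length of the members in every library except METTL3 knockdown replicate 1, where Mettl3 had fewer. Its Ribo-seq level was 2.61 and 2.95 RPKM in METTL3 knockdown, 2.50 and 2.81 RPKM in ABCF1 knockdown, 5.35 RPKM in Torin, and 2.66 and 3.40 RPKM in Scram. Torin was the highest library, at 136% of Scram replicate 2 after scaling, with an interval of 92.0% to 199%. In RNA-seq Zc3h13 had 10.9 and 5.09 RPKM in METTL3 knockdown, 12.3 and 5.36 RPKM in ABCF1 knockdown, 4.75 RPKM in Torin, and 15.1 and 5.64 RPKM in Scram.

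Rbm15 (ENSMUST00000061772, chromosome 3, 107325421 to 107333673, minus strand) and Rbm15b (ENSMUST00000055843, chromosome 9, 106880918 to 106887428, minus strand) are paralogous RNA-binding adaptors. The Ribo-seq level of Rbm15 was 20.6 and 29.6 RPKM in METTL3 knockdown, 20.9 and 26.0 RPKM in ABCF1 knockdown, 45.1 RPKM in Torin, and 21.6 and 24.5 RPKM in Scram. For Rbm15b these were 10.3 and 14.5 RPKM in METTL3 knockdown, 13.8 and 14.3 RPKM in ABCF1 knockdown, 13.4 RPKM in Torin, and 13.6 and 12.3 RPKM in Scram. Torin stood above every other library for Rbm15, also after scaling. For Rbm15b it was inside their range in these RPKM, but after scaling it was the lowest library, at 10.7 RPKM. Scram replicate 2 came next at 11.3 RPKM.

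Before scaling, their mRNA levels followed the replicate sets. In RNA-seq Rbm15 had 26.4 and 9.60 RPKM in METTL3 knockdown, 23.7 and 13.04 RPKM in ABCF1 knockdown, 11.3 RPKM in Torin, and 30.7 and 13.2 RPKM in Scram. Rbm15b had 11.9 and 8.69 RPKM in METTL3 knockdown, 13.4 and 6.71 RPKM in ABCF1 knockdown, 7.05 RPKM in Torin, and 13.7 and 9.29 RPKM in Scram. For each gene every replicate 1 library was above every library of the other set in these RPKM. After scaling the sets overlapped. Rbm15b was then at 8.93 to 10.5 RPKM in replicate 1 and 8.84 to 10.6 RPKM in the other set. Scaled Rbm15 in ABCF1 knockdown was 17.2 RPKM in replicate 1 and 18.4 RPKM in replicate 2. In METTL3 knockdown the limma Ribo-seq change was 0.14 for Rbm15 and -0.03 for Rbm15b, with 95% intervals of -0.60 to 0.87 and -0.91 to 0.84.

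The erasers showed no change that passed the test. Fto (ENSMUST00000069718, chromosome 8, 91313525 to 91668439, plus strand) had a Ribo-seq level of 55.6 and 63.8 RPKM in METTL3 knockdown, 63.5 and 78.8 RPKM in ABCF1 knockdown, 75.1 RPKM in Torin, and 49.2 and 74.2 RPKM in Scram. In RNA-seq it had 18.7 and 11.1 RPKM in METTL3 knockdown, 32.4 and 9.27 RPKM in ABCF1 knockdown, 15.7 RPKM in Torin, and 21.4 and 14.9 RPKM in Scram. Torin was above METTL3 knockdown and Scram in these Ribo-seq RPKM, but not after scaling. It was then 59.8 RPKM, between the Scram libraries at 57.8 and 68.6 RPKM and below METTL3 knockdown at 64.5 and 63.1 RPKM. The knockdown groups overlapped with Scram. In RNA-seq the groups overlapped before scaling. After scaling METTL3 knockdown, at 14.1 and 13.6 RPKM, lay below both Scram libraries, at 16.4 and 16.6 RPKM. ABCF1 knockdown, at 23.6 and 13.1 RPKM, lay on either side of them. The METTL3 knockdown mRNA was 81.6% to 86.0% of same-replicate Scram, and both counting intervals included 100%. The limma change of Fto in METTL3 knockdown was 0.02 in Ribo-seq, with a 95% interval of -0.64 to 0.68, and -0.24 in RNA-seq, with an interval of -1.12 to 0.64.

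Alkbh5 (ENSMUST00000044250, chromosome 11, 60537978 to 60558512, plus strand) had opposite readings in the replicates of ABCF1 knockdown. Its Ribo-seq level was 41.0 and 51.2 RPKM in METTL3 knockdown, 63.2 and 43.4 RPKM in ABCF1 knockdown, 92.6 RPKM in Torin, and 29.4 and 61.1 RPKM in Scram. Relative to Scram this was 196% (163% to 236%) in ABCF1 knockdown replicate 1 and 72.6% (59.0% to 89.0%) in replicate 2, so the counting intervals lay on opposite sides of 100%. The METTL3 knockdown values split the same way, at 138% (109% to 175%) and 89.7% (73.1% to 110%). Both replicate 1 ratios use Scram replicate 1, which had the lowest Alkbh5 footprint level of the 7 libraries. In RNA-seq Alkbh5 was 48.5 and 18.7 RPKM in METTL3 knockdown, 54.8 and 19.9 RPKM in ABCF1 knockdown, 22.4 RPKM in Torin, and 47.6 and 25.8 RPKM in Scram, where replicate 1 libraries were all above the other set.

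**Figure D3:**
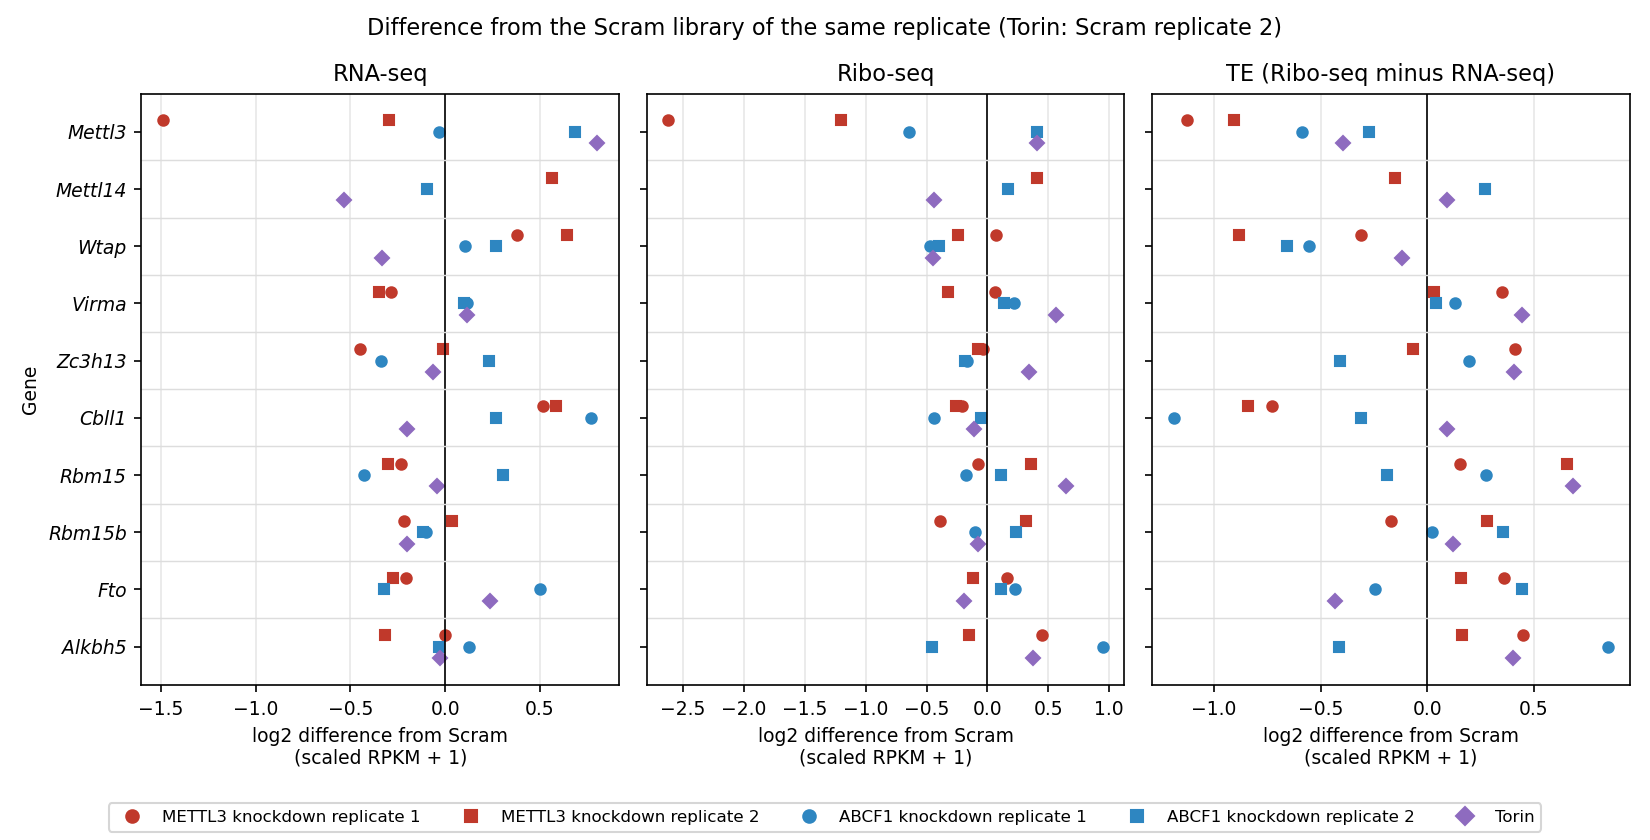
Difference of log2(scaled RPKM + 1) from same-replicate Scram (Torin from Scram replicate 2) for each gene, in RNA-seq, Ribo-seq and TE. Each point is 1 pair of libraries, and Mettl14 in replicate 1 is left out because its kept transcript was hardly listed there. Mettl3 in METTL3 knockdown reaches -2.62 and -1.20 in Ribo-seq. Mettl3 and the kept transcripts of Wtap and Cbll1 have TE points left of 0 in both knockdowns.

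In Ribo-seq of METTL3 knockdown the other 9 members stayed nearer to Scram than Mettl3 did. Their 18 ratios to same-replicate Scram in METTL3 knockdown ran between 71.0% and 169% in RNA-seq and between 75.0% and 138% in Ribo-seq. In ABCF1 knockdown they ran between 73.2% and 187% in RNA-seq and between 64.9% and 196% in Ribo-seq, and in Torin (9 ratios) between 63.9% and 119% in RNA-seq and between 72.4% and 159% in Ribo-seq. The range of the limma estimates was as modest. Apart from Mettl3 and Mettl14, the METTL3 knockdown changes of the members lay between -0.32 (Virma) and 0.55 (Cbll1) in RNA-seq and between -0.23 (Cbll1) and 0.15 (Alkbh5) in Ribo-seq.

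Read by sign in the same-replicate pairs of METTL3 knockdown, 5 of 10 members were lower in both replicates in RNA-seq (Mettl3, Virma, Zc3h13, Rbm15, Fto) and 2 were higher in both (Wtap, Cbll1). This reading uses the kept transcript, which was not listed for Mettl14 in RNA-seq of either METTL3 knockdown or Scram replicate 1. With the transcript of each set Mettl14 was also higher in both, at the 130% and 156% given above. Among all genes 26.1% were lower in both and 25.4% higher in both. In Ribo-seq 3 members were lower in both (Mettl3, Zc3h13, Cbll1), against 25.2% of genes, and 1 was higher in both (Mettl14), against 27.8% of genes. For Mettl14 this rests in replicate 1 on 2 reads of the kept transcript in METTL3 knockdown and 1 in Scram, where its other transcript was at 77.4% of Scram. In TE 3 were lower in both (Mettl3, Wtap, Cbll1), against 23.6% of genes, and 4 higher in both (Virma, Rbm15, Fto, Alkbh5), against 29.2% of genes. The same 3 were also lower in TE in both replicates of ABCF1 knockdown, against 20.3% of genes, with Mettl3 at -0.59 and -0.27. There 2 were higher in both (Virma, Rbm15b), against 30.9% of genes. No test was made of these counts.

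**Figure D4:**
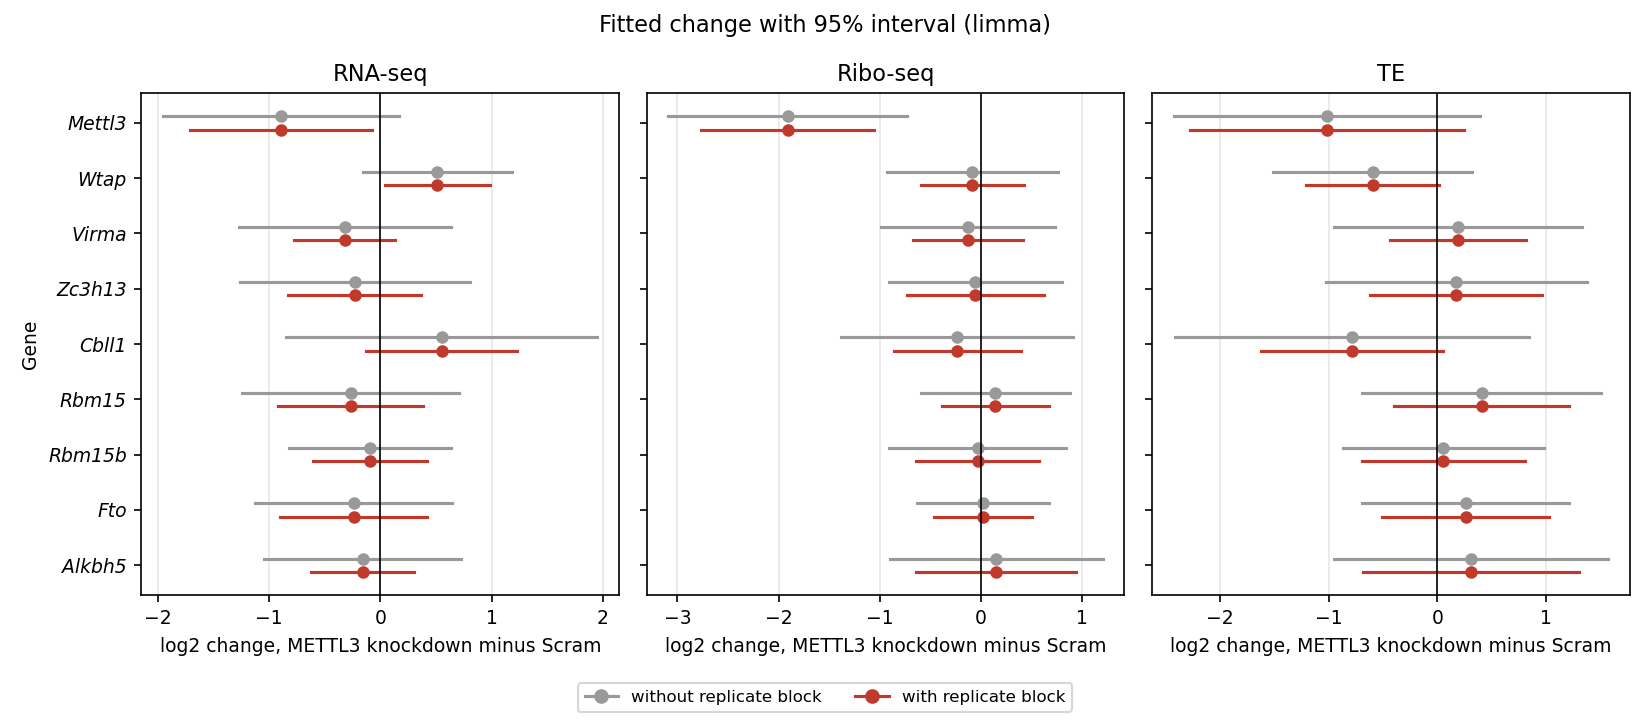
Fitted log2 change, METTL3 knockdown minus Scram, with its 95% interval, in the limma fit without (grey) and with (red) the replicate block, for 9 genes. Mettl14 is left out because its kept transcript was hardly listed in replicate 1. The Ribo-seq interval of Mettl3 ends at -0.73 without the block, and the Ribo-seq intervals of the other genes include 0.

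With Torin, 3 members had more footprints than Scram replicate 2 beyond counting error. Rbm15 was at 159% (133% to 190%), Virma at 151% (127% to 180%) and Alkbh5 at 130% (108% to 157%). Wtap was below, at 73.0% (58.4% to 90.6%), and the other members had intervals that included 100%. Without scaling these 4 ratios were 184%, 176%, 151% and 84.7%. The mRNA of Rbm15, Virma and Alkbh5 was at 96.9%, 109% and 97.9% of Scram replicate 2, and every interval included 100%. Mettl3 mRNA was at 189% with an interval of 102% to 338%, from 19 reads in Torin and 36 in Scram replicate 2.

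These are ratios of 2 libraries and compare those libraries. The limma fit assumes that the lone Torin library varies like the other groups, and without the block it sets Torin against both Scram libraries. Its Ribo-seq changes were then 0.57 for Rbm15 (SE 0.34), 0.52 for Virma (SE 0.40) and 0.73 for Alkbh5 (SE 0.49). With the block they were 0.52 (SE 0.29), 0.64 (SE 0.30) and 0.71 (SE 0.43) in the same order. None of them passed in either fit. For scale, the median Ribo-seq change of all 9534 genes with Torin was -0.09 without the block and -0.02 with it.

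Within Scram the order of the members differed between the assays. By mean Ribo-seq RPKM, Fto (61.7), the kept transcript of Wtap (52.1) and Alkbh5 (45.3) were highest and overlapped between replicates. Rbm15 (23.0) came next, apart from its neighbours. Mettl14 (18.2), Mettl3 (15.3), Virma (13.1) and Rbm15b (12.9) followed with overlapping neighbours, and Cbll1 (7.04) and Zc3h13 (3.03) were lowest and apart from each other. By mean RNA-seq RPKM the order was Alkbh5 (36.7), Virma (23.4), Rbm15 (22.0), Wtap (18.2), Fto (18.2), Rbm15b (11.5), Zc3h13 (10.4), Mettl3 (8.69), Mettl14 (4.35) and Cbll1 (4.11). In these unscaled RNA-seq levels the replicate sets lay so far apart that Fto and Rbm15b were the only neighbours that did not overlap. The order takes Wtap by its kept transcript alone. In Scram replicate 1 ENSMUST00000159986 stood at a further 121 RPKM in Ribo-seq and 17.3 RPKM in RNA-seq, which would move Wtap up. Each Mettl14 mean joins ENSMUST00000090371 in replicate 1 with the kept transcript in replicate 2.

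By the ratio of Ribo-seq to RNA-seq RPKM, the lowest and highest members were much the same in every library pair. Zc3h13 had the lowest ratio of the 10 members in 7 of 7 library pairs, between 0.176 and 1.13, which was above only 1.92% to 6.41% of genes in the same libraries. Virma was second lowest in 7 of 7 pairs, between 0.375 and 1.72, above 7.14% to 15.0% of genes. Both are long adaptors, with 5190 and 5586 coding bases, and the part of length in these ratios was not tested. Mettl14 (2.95 to 5.56) and Fto (1.96 to 8.50) always held ranks 8 to 10 from the lowest. For Mettl14 the replicate 1 pairs use ENSMUST00000090371 and the other pairs the kept transcript. Its ratios therefore cannot be compared between the sets as those of 1 transcript.

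For Mettl3 the ratio was 0.591 and 1.40 in METTL3 knockdown, above 13.2% and 16.4% of genes. It was 0.937 and 2.66 in ABCF1 knockdown (24.6% and 32.7%), 2.57 in Torin (29.0%), and 1.41 and 2.74 in Scram (39.5% and 41.7%). By percentile both METTL3 knockdown pairs were below every other pair and both Scram pairs above every other pair. Torin lay between them, inside the range of ABCF1 knockdown. The test of METTL3 knockdown against Scram is the TE change above, which did not pass.

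**Figure D5:**
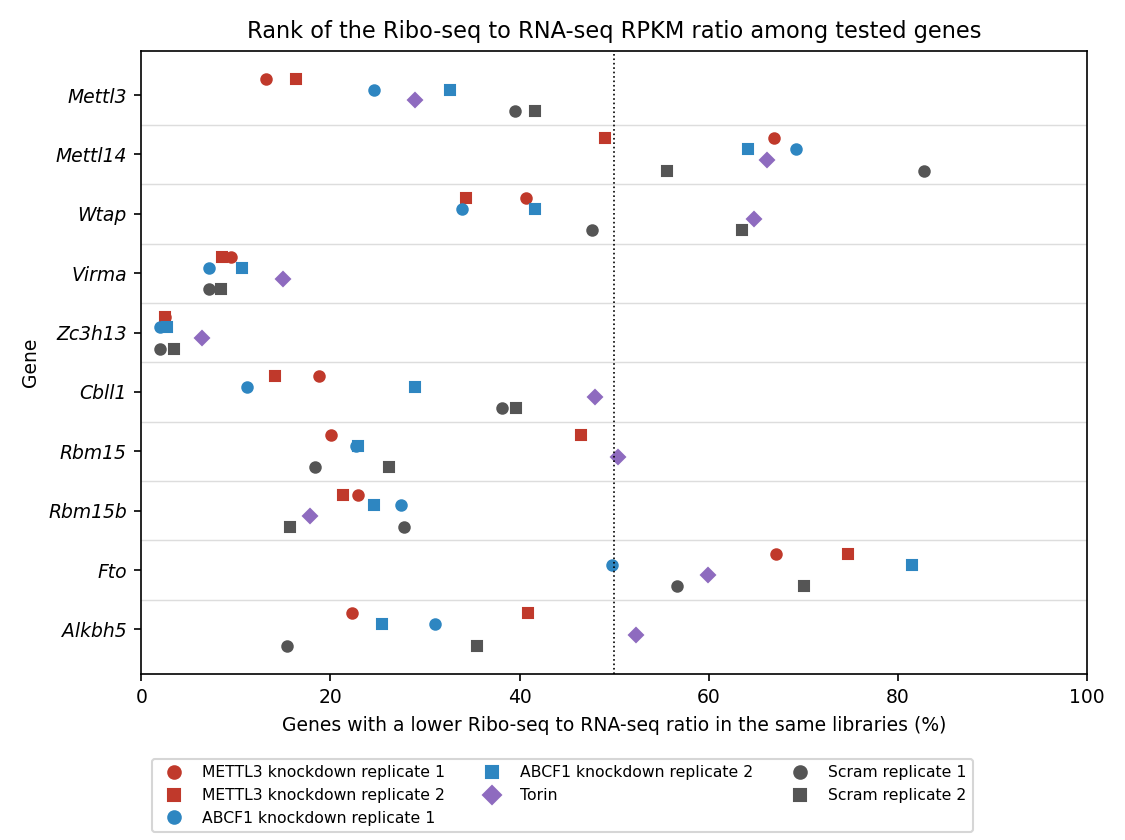
Percent of genes with a lower Ribo-seq to RNA-seq RPKM ratio in the same pair of libraries (horizontal axis), for each gene and each of the 7 pairs. Zc3h13 stays between 1.92% and 6.41% and Virma between 7.14% and 15.0%, while Mettl14 and Fto lie between 49.0% and 82.7%. Mettl14 is shown by ENSMUST00000090371 in replicate 1 and by its kept transcript in the other pairs.

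The pattern of Mettl3 over the 10 same-replicate log2 differences (both assays, 5 pairs each) was set beside that of 6933 genes listed in all libraries. The genes most like it by Pearson r were Il17ra (0.95), an interleukin receptor subunit, Slf2 (0.93), Pdcd5 (0.91), Phc3 (0.91), a Polycomb protein, and Nudcd1 (0.91). The 10 points share the Scram libraries and are not independent, so r is a description. Among the members r ran between -0.30 (Alkbh5) and 0.43 (Virma), with Mettl14 not listed in all libraries.

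Other genes of the m6A pathway were read from 3 lists. Of 15 m6A readers, the proteins that bind the mark, 13 were tested. Of 18 other RNA methylation enzymes and enzymes of S-adenosylmethionine supply 16 were tested, and of 7 other AlkB-family dioxygenases 7. The limma fit called 0 of these in either direction in all comparisons, with and without the block, beside the shares of all genes given above. The median METTL3 knockdown change in Ribo-seq was -0.07 for readers, 0.07 for the other methylation enzymes and 0.24 for the AlkB family, beside 0.02 for all genes. With Torin the AlkB family had a median Ribo-seq change of -0.71, beside -0.09 for all genes. In this list 6 of 7 were below 0 and 1 above, where 45.5% of all genes were above 0. These values rest on 1 Torin library, and leaving out the scaling shifts every Torin Ribo-seq change by 0.39. No test was made of this count.

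By lowest p in METTL3 knockdown Ribo-seq, the readers Igf2bp3 (log2 change -0.69, SE 0.37) and Igf2bp1 (-0.56, SE 0.35) came first in their list. In the methylation list these were Cmtr2, a cap methyltransferase (-0.89, SE 0.35), and Mettl5, an 18S rRNA methyltransferase (-0.83, SE 0.43). In the AlkB list they were Alkbh7 (0.64, SE 0.30) and Alkbh3 (0.28, SE 0.26). The limma adjusted p was 1.00 for each of these 6 genes without the block, and 0.209 for Cmtr2, the lowest of them, with it.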

How the data were processed

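The authors deposited RPKM values, 1 per Ensembl transcript and library; per the submitters' processing notes reads were trimmed with cutadapt and mapped with Bowtie to GRCm38. Versions, annotation release, strand use and the treatment of multi-mapping reads: not given in the sources used here. Of 22453 transcripts, 22356 matched GENCODE M21. Multiplying RPKM by the coding length (Ribo-seq) or exon length (RNA-seq) gave whole reads within 0.02 for 98.7% to 98.8% of Ribo-seq and 80.4% to 85.4% of RNA-seq values; Fto RNA-seq reads did not come out whole, so its read-based intervals are approximate. Replicate 1 files list transcripts from 1 read up, the others from 5 reads up. A transcript absent from a file was set to 0. PCR duplicates cannot be seen, so intervals cover counting error only.

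Genes listed in at least 0.5 of the libraries with a mean of at least 1 RPKM were tested, which were 9021 in RNA-seq, 9534 in Ribo-seq and 9428 in TE, all 10 members among them in each. Libraries were scaled to a common median, a pseudocount of 1 was added, and limma 3.58.1 (eBayes with trend; R 4.3.3, Python 3.11.15) was fitted without a replicate block, with Benjamini-Hochberg adjustment over all genes, calls at an adjusted p under 0.05, two-sided, and 3, 3 and 6 residual degrees of freedom. TE changes are interaction contrasts. The fit was tested on simulated data. Same-numbered libraries deviated together from their group means (r of 0.817 to 0.880 in RNA-seq, 0.910 to 0.939 in Ribo-seq), so the numbers pair the libraries. The listing rules also differ between the sets, and their part in these correlations was not tested. The blocked values are given where they matter, and Torin took the level of replicate 2. Alternatives were the block, a pseudocount of 0.1, no filter, no scaling, quantile normalization, RPKM summed over transcripts, the transcript chosen within each set, and leaving out replicates. Genes named are all members, the 2 of each list with the lowest p in METTL3 knockdown against Scram in Ribo-seq, and the 5 most like Mettl3. Members, lists and tests were chosen with earlier results of these data known.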

Additional observations from a re-analysis of the deposited data

How the results depend on the processing

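The counts of members called stayed at 0 in every alternative run with a test. In those refits 621 of 663 changes of members kept their sign and 42 turned. With the replicate block limma called for Torin 10 genes from RNA-seq, 126 from Ribo-seq and 52 for TE, 1 in Ribo-seq for METTL3 knockdown and 5 in Ribo-seq for METTL3 knockdown minus ABCF1 knockdown, against 0 without it, and it changed no other call. For Torin a pseudocount of 0.1 gave 22 calls in TE, and no filter gave 15 in Ribo-seq and 55 in TE. Without replicate 1 or replicate 2, a value with no test, Mettl3 in METTL3 knockdown ran between -1.49 and -0.30 in RNA-seq and between -2.62 and -1.20 in Ribo-seq. Of the 186 changes left by a single replicate, also values with no test, 35 had the other sign, among them Alkbh5 at -0.45 in ABCF1 knockdown Ribo-seq and -0.15 in METTL3 knockdown Ribo-seq and Fto at -0.32 in ABCF1 knockdown RNA-seq, each without replicate 1. The log2 changes below are the 42 whose sign turned in the refits with a test. None of them was called, and the cause was not tested. With the replicate block they were, for Torin, Mettl14 -0.53, Virma 0.13 and Alkbh5 0.051 in RNA-seq, Mettl14 -0.49 in Ribo-seq, and Wtap -0.0040 and Cbll1 -0.035 in TE. With no filter they were Virma 0.044 in Torin RNA-seq, Fto -0.0084 in METTL3 knockdown Ribo-seq, Rbm15b -0.00070 in METTL3 knockdown TE, and Wtap -0.13 and Cbll1 -0.075 in Torin TE. Leaving out the scaling shifts all changes by -0.44 in RNA-seq, 0.39 in Ribo-seq and 0.81 in TE for Torin, by -0.13 in RNA-seq and 0.17 in TE for ABCF1 knockdown, and by under 0.1 in the other cases. It turned Virma to -0.015, Fto to -0.027 and Alkbh5 to -0.081 in ABCF1 knockdown RNA-seq, Fto to -0.18 in Torin RNA-seq, Fto to -0.021 in METTL3 knockdown Ribo-seq, Rbm15 to 0.018 in ABCF1 knockdown Ribo-seq, Wtap to 0.14, Rbm15b to 0.050 and Fto to 0.31 in Torin Ribo-seq, Zc3h13 to 0.035 in ABCF1 knockdown TE, and Mettl3 to 0.39, Rbm15b to 0.66 and Fto to 0.48 in Torin TE. Quantile normalization gave Mettl3 -0.033, Zc3h13 -0.072 and Fto 0.16 in Torin Ribo-seq, Virma -0.0028 in ABCF1 knockdown TE and Cbll1 -0.25 in Torin TE. RPKM summed over transcripts gave Wtap 0.011 in METTL3 knockdown Ribo-seq, Mettl14 -0.28 and Fto 0.16 in Torin Ribo-seq, Mettl14 -0.37 in METTL3 knockdown TE, and Mettl14 -0.32 and Wtap -0.45 in Torin TE. The transcript chosen within each set, added after seeing the data, gave Mettl14 -0.045 in ABCF1 knockdown RNA-seq, Wtap 0.030 in METTL3 knockdown Ribo-seq, Mettl14 -0.28 and Fto 0.15 in Torin Ribo-seq, Mettl14 -0.37 in METTL3 knockdown TE, and Mettl14 -0.33 and Wtap -0.79 in Torin TE. Depth limits Mettl3, with 9 to 44 RNA-seq reads per library, Cbll1 and Mettl14 most.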
